A study of Homo sapiens with 6 samples.

Results

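The 10 genes described here carry the Wnt signal inside the cell. They are the Dishevelled genes DVL1, DVL2 and DVL3, the scaffold gene APC, the beta-catenin gene CTNNB1, and the beta-catenin coactivator genes BCL9, BCL9L, PYGO2, CREBBP and EP300. They were chosen by symbol and by role, and all 10 were listed in every library and passed the expression minimum, out of 20979 symbols listed and 13400 genes tested. RNA was sequenced from A172, a human glioblastoma cell line, in 6 libraries of 3 groups with 2 libraries each. Cells were transfected with duplexes named for the miR-324-5p arm (5p duplex) and the miR-324-3p.1 arm (3p.1 duplex) or with a control miRNA (control), and were harvested after 1 day. All groups received the same lipid reagent and serum medium, and the labels give no genotype difference between them. They name neither the strand of a duplex that acted nor separate cultures behind the replicates, so each p-value covers no more than the spread of these 6 libraries.

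In canonical Wnt signalling, a Wnt ligand bound to Frizzled and LRP receptors recruits Dishevelled, which disables the complex of APC, AXIN and kinases that marks beta-catenin for destruction. Beta-catenin then enters the nucleus and binds TCF/LEF factors. There BCL9 or BCL9L links it to the PHD finger protein PYGO2, while the acetyltransferases CREBBP (CBP) and EP300 (p300) acetylate histones nearby. CREBBP and DVL2 have been reported as targets of miR-324-3p. A microRNA finds messages mainly by its seed, bases 2 to 8, which pairs with a complementary stretch in the 3′UTR.

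The seeds of the miR-324 arms and their matches in these 10 genes are shown first. The 2 genes with the largest differences for 5p duplex against control, in opposite directions, share 1 kind of match. The mature sequences below come from RefSeq (GRCh38.p14, hairpin at chr17:7223297-7223379, minus strand), with the seed in capitals.
miR-324-5p: cGCAUCCCcuagggcauuggug
miR-324-3p: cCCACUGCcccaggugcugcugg
The sequence of the 3p.1 duplex is not in the labels, so 3 starts of the 3p arm were searched: the RefSeq start (site GCAGTGG), the start 1 base later (site GGCAGTG) and the start 3 bases later (site GGGGCAG). Matches to these 3 words can overlap one another. The site for the 5p seed is GGGATGC. An 8mer is such a word followed by A, a 7mer-m8 the word alone, and a 7mer-A1 its last 6 bases followed by A. Matches were sought on the transcript strand only, in the longest 3′UTR annotated in GENCODE 29 (GRCh38).

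Of the 10 genes, BCL9 and PYGO2 held a match to the miR-324-5p seed, a 7mer-m8 each. Matches of that class were in 6.48% of the 11747 tested genes with a 3′UTR. A 7mer or 8mer of any class to this seed was in 2 of the 10 genes, against 14.6% of those genes. The BCL9 match lies at chr1:147625912-147625918 on the plus strand, 953 bases after the stop codon in a 3′UTR of 1257 bases. The PYGO2 match lies at chr1:154957760-154957766 on the minus strand, 1013 bases into a 3′UTR of 1753 bases. Capitals mark the match.
BCL9, 5p match: ggtctgtccttGGGATGCtctctggtctt
PYGO2, 5p match: cctgtgggtagGGGATGCggcgggatcct

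CREBBP held the 1 8mer to the RefSeq 3p start among the 10 genes, at chr16:3725368-3725375 (minus strand), and the word of the next start overlaps it there. An 8mer of this kind was in 4.50% of genes, and any 7mer or 8mer to that start in 3 of the 10 genes, against 32.1%. PYGO2 held the 1 8mer to the latest 3p start, at chr1:154958662-154958669, 110 bases after its stop codon, against 5.58% of genes. Any 7mer or 8mer to the latest start was in 4 of the 10 genes, against 28.05%. BCL9L has the longest 3′UTR of the set (4540 bases, longer than in 89.8% of genes) and held 6 matches to the 3p starts. Of these, 4 were to the latest start. Its 7mer-m8 to the start 1 base later is shown as an example, at chr11:118898231-118898237 (minus strand). A 7mer-m8 to that start was in 13.5% of genes. Any 7mer or 8mer to it was in 4 of the 10 genes, against 30.9%.
CREBBP, 3p match: ttttaatgtggGCAGTGGAggggcctctgt
PYGO2, 3p match: tccatccccatGGGGCAGAaacagtggctc
BCL9L, 3p match: tagggggaagtGGCAGTGtggggtggggg
DVL2, the other reported target, held no 7mer or 8mer to any of these 4 seeds in its 3′UTR of 524 bases (22.4% of genes have a shorter one). Its coding part held 10 matches to the 3p starts, 1 of them an 8mer to GGCAGTG at chr17:7226214-7226221 (minus strand), shown because CREBBP and DVL2 are the reported targets. Matches upstream of the stop codon were not particular to DVL2: 9 of the 10 genes (all but PYGO2) held a 7mer or 8mer of that start there, against 33.3% of genes, and all 10 held one of the RefSeq 3p start, against 37.8%. EP300 held 6 matches to the miR-324-5p seed there and the other 9 genes none, against 20.8% of genes with at least 1. These shares are not matched on length.
DVL2, coding match: agtccggcagtGGCAGTGAgtctgagccct
DVL2 also neighbours the microRNA itself: the gene (17, 7225341 to 7234545, minus strand) ends 1961 bases before the MIR324 hairpin on the same strand.

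**Figure D1:**
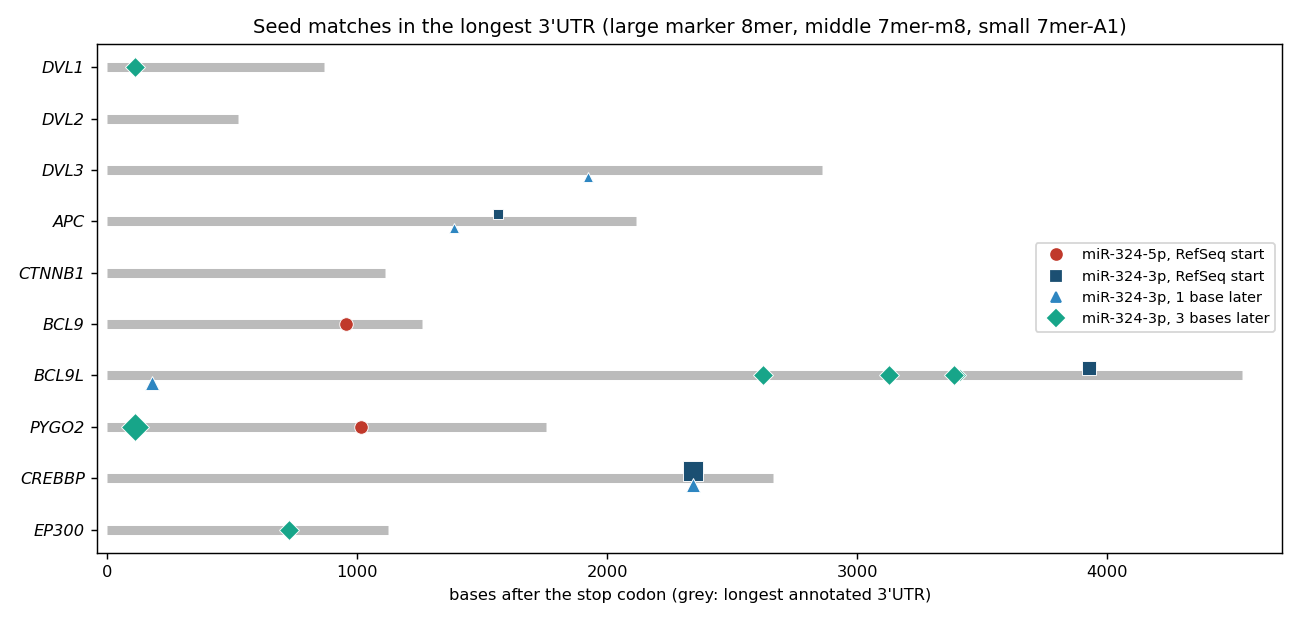
Position of 7mer and 8mer seed matches in the longest annotated 3′UTR of each gene, in bases after the stop codon; grey bars are the 3′UTRs, colours are the 4 seeds and marker size is the match class. BCL9 and PYGO2 hold the 2 matches to miR-324-5p, and the DVL2 and CTNNB1 bars are empty.

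Levels are given in TPM, which corrects for transcript length, so genes can be set beside each other. CTNNB1 was the most abundant of the 10 genes, between 149.5 and 175.8 TPM over the 6 libraries, and stood above 91.7% of tested genes. DVL3 followed at 51.96 to 58.86 TPM. PYGO2, CREBBP, DVL2, APC and DVL1 came next with means of 28.8, 25.3, 25.1, 21.9 and 21.9 TPM, and neighbours in that order overlapped. EP300 averaged 16.5 TPM, BCL9L 13.0 TPM and BCL9 6.32 TPM, the lowest. BCL9L stood above BCL9 in all 6 libraries and below EP300 in 5 of 6.

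The median difference between the 2 replicates over all tested genes was 0.153 (5p duplex), 0.129 (3p.1 duplex) and 0.167 (control) on the log2 scale. In control libraries 7 of the 10 genes exceeded that median, with DVL2 (0.339), BCL9 (0.286) and BCL9L (0.268) the farthest apart. In the 3p.1 duplex DVL2 did so (0.305), and with the 5p duplex none of the 10 did. Sequencing depth is unknown, because TPM keeps no read number. VIM and CD44, mesenchymal markers common in glioblastoma cultures, stood at 4788 to 5910 and 708.2 to 928.8 TPM, while the glial marker GFAP stayed at 0.05 to 0.25 TPM and S100B was not listed. Of the other glioblastoma and glial markers read, NES stood at 90.92 to 132.5 TPM and EGFR at 50.93 to 95.75 TPM. CHI3L1 (1.91 to 2.91 TPM), SOX2 (1.75 to 3.29 TPM), OLIG2 (2.75 to 4.98 TPM) and FABP7 (0 to 0.01 TPM) were low. The 4 listed blood and endothelial markers summed to 6.10 to 8.18 TPM, nearly all of it PTPRC, and the 5 neuronal markers to 11.1 to 12.8 TPM, nearly all of it SYT1.

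The control libraries stood apart in 30 interferon response genes, which summed to 1064 and 1105 TPM with the 5p duplex, 1021 and 1032 TPM with the 3p.1 duplex, and 2588 and 6298 TPM in control. All 30 had an unadjusted p under 0.05 and were lower in each duplex group, and 4 passed adjustment with the 5p duplex. The 2 control libraries also differ from each other in this list. Every comparison against control below carries this difference with it, and its part in the results was not tested. The comparisons of the 5p duplex and of the 3p.1 duplex with control share the same 2 control libraries.

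Differences are log2 fold changes of TPM + 1 from 1 limma model of all 6 libraries, with a Benjamini-Hochberg adjusted p under 0.05 over 13400 genes as the threshold. None of the 10 genes passed it in any comparison of this model, which has no term for the replicate number. The count was 0 of 10 for 5p duplex against control, where 0.463% of all genes passed, 0 of 10 for 3p.1 duplex against control (0.0149%), and 0 of 10 for 5p duplex against 3p.1 duplex (0.433%). At an unadjusted p under 0.05 the counts were 3 of 10 (APC, BCL9 and PYGO2; 9.16% of all genes), 2 of 10 (BCL9L and PYGO2; 6.86%) and 1 of 10 (BCL9; 9.34%). The groups did not overlap for 6, 5 and 5 of the 10 genes, against 34.8%, 36.3% and 40.4% of all genes. The median over the 10 genes was -0.02 for 5p duplex against control and -0.03 for 3p.1 duplex against control, beside -0.03 over all genes in both. A limma fit with the replicate number as a block called BCL9 (adjusted p = 0.0258) and PYGO2 (adjusted p = 0.0457) for 5p duplex against control. It called 367 of the 13400 genes there. The labels tie these numbers to no batch.

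**Figure D2:**
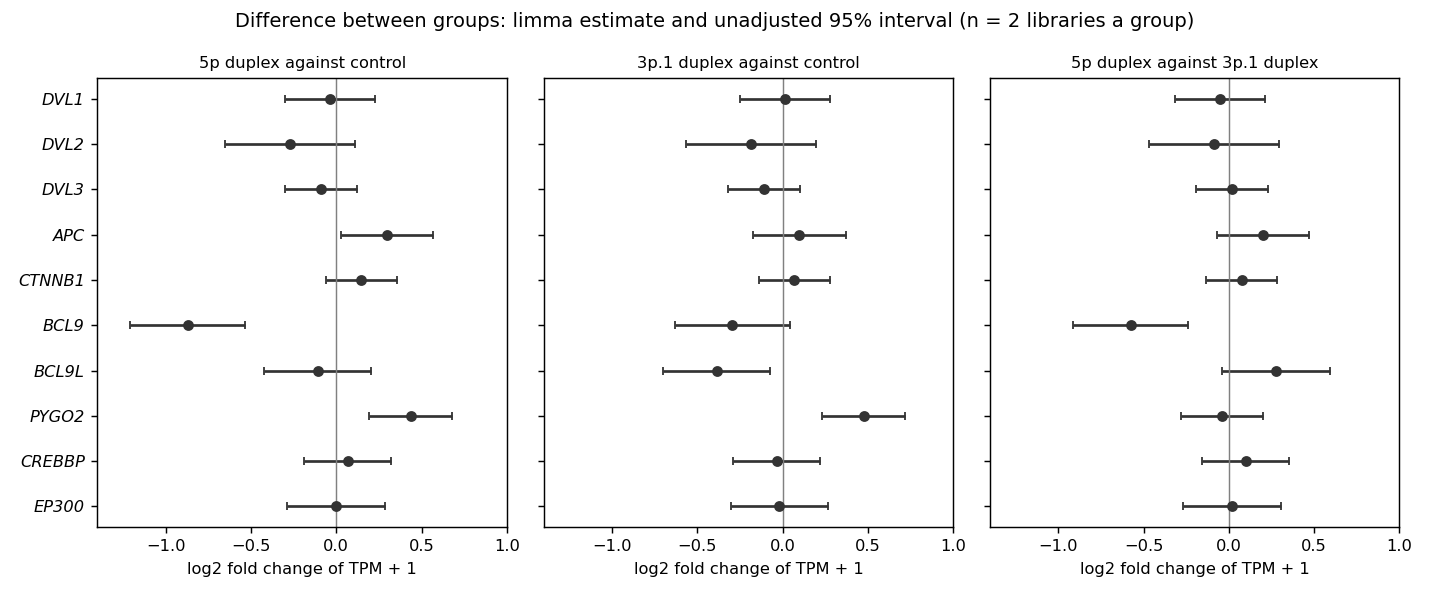
Log2 fold change of TPM + 1 for each gene in the 3 comparisons, with the unadjusted 95% interval from limma (n = 2 libraries a group). BCL9 lies farthest left for 5p duplex against control and against the 3p.1 duplex, BCL9L for 3p.1 duplex against control, and PYGO2 lies right of 0 in both comparisons with control.

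Dishevelled proteins relay the signal from Frizzled receptors to the destruction complex. DVL2 stood at 23.63 and 22.11 TPM with the 5p duplex, 27.14 and 21.77 TPM with the 3p.1 duplex, and 31.35 and 24.58 TPM in control. Both 5p duplex libraries lay below both controls, while the 3p.1 duplex libraries spanned the lower control. The log2 fold change was -0.27 (SE 0.158, 95% interval -0.65 to 0.11, adjusted p = 0.703) with the 5p duplex and -0.18 (interval -0.56 to 0.20, adjusted p = 0.918) with the 3p.1 duplex. In every group DVL2 was higher in replicate 1. Without control replicate 1 these differences were -0.10 and -0.02, and without control replicate 2 they were -0.44 and -0.35. Without replicate 2 of the 3p.1 duplex, that duplex gave -0.03.

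DVL1 stood at 20.78 and 22.02 TPM with the 5p duplex, 22.19 and 22.3 TPM with the 3p.1 duplex, and 23.71 and 20.42 TPM in control, so the controls enclosed the other 4 libraries. Its differences from control were -0.04 and 0.01 (adjusted p = 0.953 and 0.994), and with libraries set to an equal median the first was 0.02. DVL3, the most abundant Dishevelled gene, stood at 52.41 and 55.32 TPM with the 5p duplex, 51.96 and 54.29 TPM with the 3p.1 duplex, and 58.86 and 55.85 TPM in control. All 4 duplex libraries lay below both controls, by -0.09 (interval -0.300 to 0.122) and -0.11 (interval -0.320 to 0.103) on the log2 scale. DVL3 held 54.9 ± 1.06%, 53.3 ± 2.76% and 53.5 ± 2.62% of the summed Dishevelled TPM in the 5p duplex, 3p.1 duplex and control groups (SD, n = 2 each), which overlap. The DVL1 share was 21.8 ± 0.480%, 22.3 ± 0.540% and 20.5 ± 0.400%, with both controls below the 4 duplex libraries.

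APC is a scaffold protein of the complex that marks beta-catenin for destruction. Its level was 25.8 and 23.39 TPM with the 5p duplex, 22 and 20.56 TPM with the 3p.1 duplex, and 18.6 and 21.1 TPM in control. The 5p duplex libraries were the 2 highest of the 6, and the 3p.1 duplex libraries overlapped the controls. The log2 fold change was 0.30 with the 5p duplex (SE 0.113, unadjusted p = 0.0366, adjusted p = 0.490) and 0.10 with the 3p.1 duplex (adjusted p = 0.947). Without control replicate 1 these were 0.21 and 0.01. Between the duplexes it was 0.20 (interval -0.07 to 0.47, adjusted p = 0.675).

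Beta-catenin itself, the product of CTNNB1, is controlled mainly through its protein stability, which these RNA libraries do not measure. CTNNB1 stood at 175.8 and 159.0 TPM with the 5p duplex, 157.9 and 159.3 TPM with the 3p.1 duplex, and 149.5 and 152.7 TPM in control. All 4 duplex libraries lay above both controls by a narrow margin. The log2 fold changes were 0.15 (interval -0.06 to 0.35, adjusted p = 0.712) and 0.07 (interval -0.14 to 0.28, adjusted p = 0.952). Without replicate 1 of the 5p duplex, that duplex gave 0.07.

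BCL9 is the adaptor that binds beta-catenin on one side and PYGO proteins on the other. Its level was 3.95 and 4.19 TPM with the 5p duplex, 6.61 and 6.5 TPM with the 3p.1 duplex, and 9.24 and 7.4 TPM in control. The 3 groups did not overlap: the 5p duplex libraries were the lowest and the controls the highest. The log2 fold change of 5p duplex against control was -0.87 (SE 0.1395, interval -1.21 to -0.535, unadjusted p = 0.000616), and its adjusted p of 0.0753 missed the threshold. Against the 3p.1 duplex it was -0.58 (interval -0.91 to -0.24, adjusted p = 0.254), and 3p.1 duplex against control gave -0.30 (interval -0.63 to 0.04, adjusted p = 0.770). Of all tested genes, 0.791% had a smaller p for 5p duplex against control. In fits that left out 1 library, the difference from control ran from -1.01 to -0.73 with the 5p duplex (adjusted p = 0.108 to 0.385) and from -0.44 to -0.15 with the 3p.1 duplex.

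BCL9L, the paralog of BCL9, showed another order. It stood at 12.7 and 14.12 TPM with the 5p duplex, 10.97 and 10.8 TPM with the 3p.1 duplex, and 16.04 and 13.15 TPM in control. The 3p.1 duplex libraries were the lowest, while the 5p duplex libraries overlapped the controls. The log2 fold change was -0.39 for 3p.1 duplex against control (SE 0.130, interval -0.70 to -0.07, unadjusted p = 0.0236, adjusted p = 0.624) and -0.11 for 5p duplex against control (adjusted p = 0.879). Without control replicate 1 the 3p.1 duplex difference was -0.25, and the 5p duplex difference was 0.02.

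PYGO2, which reads methylated histone H3 through its PHD finger, was higher in all 4 duplex libraries than in both controls. Its level was 30.45 and 32.07 TPM with the 5p duplex, 31.51 and 32.8 TPM with the 3p.1 duplex, and 21.6 and 24.15 TPM in control. The duplex groups overlapped each other and lay clear of the controls. The log2 fold changes against control were 0.44 (SE 0.1004, interval 0.19 to 0.68, unadjusted p = 0.00423, adjusted p = 0.179) and 0.48 (interval 0.23 to 0.72, unadjusted p = 0.00273, adjusted p = 0.372). The duplexes differed by -0.04 (interval -0.28 to 0.20, adjusted p = 0.957). In fits that left out 1 library the difference from control stayed positive, at 0.36 to 0.51 with the 5p duplex and 0.40 to 0.55 with the 3p.1 duplex, with no adjusted p under 0.243.

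**Figure D3:**
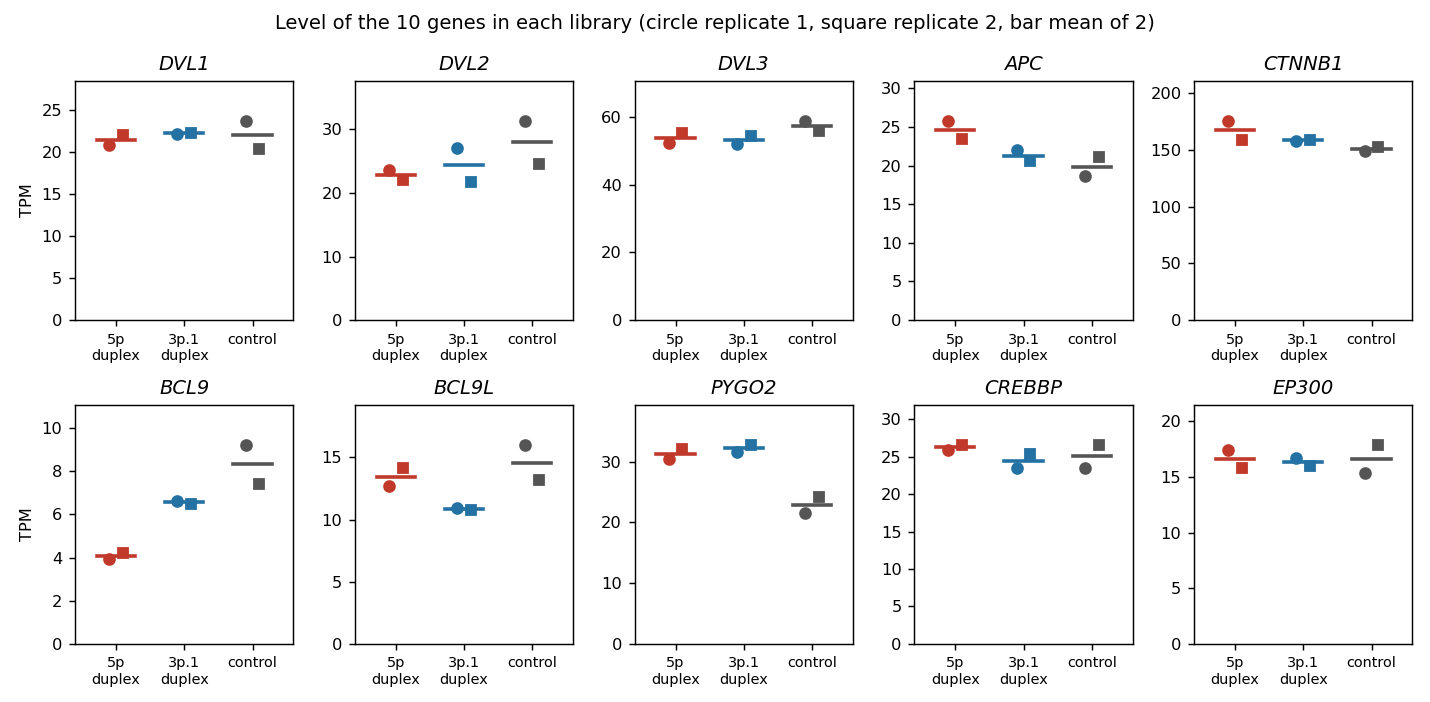
TPM of each of the 10 genes in every library, by group; circles are replicate 1, squares replicate 2 and bars the mean of 2, with axes from 0. BCL9 separates the 3 groups, PYGO2 separates the 4 duplex libraries (30.45 to 32.8 TPM) from the controls (21.6 and 24.15 TPM), and CREBBP and EP300 overlap in all comparisons with control.

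BCL9 and PYGO2 thus lay at opposite ends of the genes that share their match. Of 720 genes whose strongest match to the miR-324-5p seed was a 7mer-m8, the median log2 fold change for 5p duplex against control was -0.09 and 68.2% lay below 0. Without a match (8808 genes) the median was -0.02 and 55.3% lay below 0. In the class of 720 genes, 2.92% were lower than BCL9 and 99.9% were lower than PYGO2. For 3p.1 duplex against control, 60.1% of the same class lay below 0. There 8.89% were lower than BCL9 and 99.6% lower than PYGO2. Between the duplexes, 4.72% were lower than BCL9 and 51.7% lower than PYGO2. PYGO2 also carried the 8mer to the latest 3p start, and for 3p.1 duplex against control 99.7% of the 655 genes in that class were lower than PYGO2. These ranks describe genes and are not tests over samples, and the classes are not matched on 3′UTR length.

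CREBBP and EP300 are the acetyltransferases that beta-catenin recruits to its target genes. CREBBP, a reported miR-324-3p target with an 8mer in its 3′UTR, stood at 25.93 and 26.59 TPM with the 5p duplex, 23.49 and 25.44 TPM with the 3p.1 duplex, and 23.54 and 26.64 TPM in control. The controls spanned all but the lowest library, which held the 3p.1 duplex. The log2 fold change of 3p.1 duplex against control was -0.03 (SE 0.106, interval -0.29 to 0.22, adjusted p = 0.989), and its sign turned with quantile normalization (0.01) and with an equal median (0.02). Among the 529 genes whose strongest match was that 8mer, 50.5% were lower than CREBBP in this comparison. For 5p duplex against control it was 0.07 (interval -0.19 to 0.32, adjusted p = 0.911), and -0.02 without control replicate 1.

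EP300 stood at 17.4 and 15.81 TPM with the 5p duplex, 16.71 and 16.01 TPM with the 3p.1 duplex, and 15.37 and 17.92 TPM in control. The controls enclosed the other 4 libraries. Its differences from control were below 0.03 in size in both comparisons (intervals -0.29 to 0.28 and -0.31 to 0.27), turning positive with either other scaling. Differences within these unadjusted intervals remain possible. A larger one, that of PYGO2 for 5p duplex against control (0.44, adjusted p = 0.179 by limma), still missed the threshold with 2 libraries a group.

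Ratios of paralogs within a library do not depend on the scaling of that library; the 2 pairs were chosen after the values were seen and carry no test. BCL9L over BCL9 was 3.215 and 3.37 with the 5p duplex, 1.66 and 1.662 with the 3p.1 duplex, and 1.736 and 1.777 in control. The 5p duplex libraries stood apart, and the other 4 lay within 1.66 to 1.777. CREBBP over EP300 was 1.49 and 1.682 with the 5p duplex, 1.406 and 1.589 with the 3p.1 duplex, and 1.532 and 1.487 in control, and these groups overlapped. A ratio shows unequal change, not which gene changed. How reads shared by paralogs were divided was not measured.

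**Figure D4:**
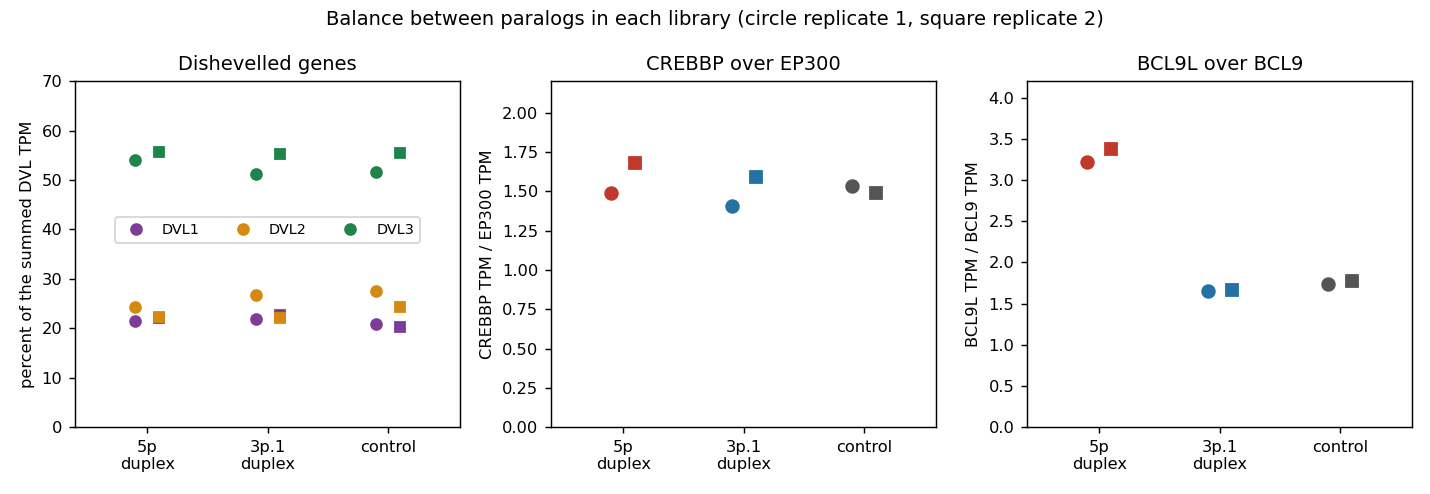
Balance between paralogs in each library: share of each Dishevelled gene in the summed DVL TPM (percent), and the ratios of CREBBP to EP300 and of BCL9L to BCL9 (no unit). BCL9L over BCL9 is 3.215 and 3.37 with the 5p duplex, above the other 4 libraries.

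The rest of the pathway was read through 8 lists of 124 other Wnt genes, 77 of which passed the expression minimum (some genes are in more than 1 list). None passed the adjusted threshold by limma without a replicate term in any comparison. At an unadjusted p under 0.05, 10 were lower and 0 higher for 5p duplex against control, 2 lower and 0 higher for 3p.1 duplex against control, and 9 lower and 1 higher for 5p duplex against 3p.1 duplex. The shares of all genes were 7.3% lower and 1.86% higher in the comparison of 5p duplex with control, 5.62% and 1.24% in that of 3p.1 duplex with control, and 4.96% and 4.39% between the duplexes. Medians over the 77 genes were -0.05, -0.04 and 0.01, beside -0.03, -0.03 and 0.01 over all genes. In bulk RNA, fewer cells of a type and less RNA per cell cannot be told apart.

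Among ligands and secretion factors (7 of 25 tested), WNT5A, a ligand known mainly from beta-catenin-independent signalling, had 8.17 and 7.71 TPM with the 5p duplex, 10.81 and 12.37 TPM with the 3p.1 duplex, and 10.95 and 11.11 TPM in control. Its log2 fold change was -0.43 for 5p duplex against control (adjusted p = 0.269) and -0.49 for 5p duplex against 3p.1 duplex (adjusted p = 0.243). WNT9A, another ligand, gave -0.38 and -0.33 in those comparisons (adjusted p = 0.347 and 0.433). For 3p.1 duplex against control the 2 lowest p-values were those of WNT3 and PORCN, the acyltransferase that lipidates Wnt proteins (log2 -0.10 and 0.11, adjusted p = 0.944 and 0.963).

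Of the receptors (14 of 19 tested), RYK, a Wnt co-receptor of the receptor tyrosine kinase type, stood lowest with the 3p.1 duplex. Its level was 51.63 and 47.13 TPM with the 5p duplex, 32.16 and 31.23 TPM with the 3p.1 duplex, and 60.9 and 62.03 TPM in control. The 3 groups did not overlap. The log2 fold change was -0.93 for 3p.1 duplex against control (SE 0.0905, unadjusted p = 3.27e-05, adjusted p = 0.0934) and 0.62 for 5p duplex against 3p.1 duplex (adjusted p = 0.0717), both short of the threshold. With the replicate number as a block in limma, RYK passed the threshold in both comparisons (adjusted p = 0.0363 and 0.0210). In fits that left out 1 library, the RYK difference of 3p.1 duplex against control ran from -0.95 to -0.91. For 5p duplex against control RYK gave -0.31 (adjusted p = 0.317). The Frizzled receptor genes FZD8 (5p duplex against control), FZD2 (3p.1 duplex against control) and FZD1 (5p duplex against 3p.1 duplex) gave -0.40, -0.18 and -0.29 (adjusted p = 0.473, 0.837 and 0.533).

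In the destruction complex list (16 of 18 tested), AMER1, a membrane-bound partner of APC, had 2.44 and 2.36 TPM with the 5p duplex, 4 and 4.19 TPM with the 3p.1 duplex, and 3.95 and 4.48 TPM in control. The 5p duplex libraries lay below all others, with log2 fold changes of -0.62 against control (adjusted p = 0.151) and -0.58 against the 3p.1 duplex (adjusted p = 0.217). CSNK1E, a kinase that phosphorylates Dishevelled, gave 0.17 for 5p duplex against control (adjusted p = 0.719). BTRC, the ubiquitin ligase subunit that recognises phosphorylated beta-catenin, gave -0.25 for 3p.1 duplex against control (adjusted p = 0.668). GSK3B, the kinase that phosphorylates it, gave 0.15 for 3p.1 duplex against control and -0.18 for 5p duplex against 3p.1 duplex (adjusted p = 0.831 and 0.608).

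Among TCF/LEF factors and co-repressors (12 of 13 tested), the Groucho co-repressor TLE4 gave -0.49 against control and -0.48 against the 3p.1 duplex (adjusted p = 0.368 and 0.392) for the 5p duplex. LEF1, a factor that brings beta-catenin to DNA, gave -0.48 and -0.57 (adjusted p = 0.397 and 0.315). Its libraries held 2.23 and 1.84 TPM with the 5p duplex, 3.22 and 3.82 TPM with the 3p.1 duplex, and 2.94 and 3.55 TPM in control. For 3p.1 duplex against control the lowest p-values were those of CHD8, a chromatin remodeller, and TCF7 (-0.09 and -0.30, adjusted p = 0.958 and 0.963). TCF7 was higher in replicate 1 of every group, by more than its groups differed.

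Of the other coactivators (13 of 13 tested), CARM1, an arginine methyltransferase, gave -0.40 against control and -0.31 against the 3p.1 duplex for the 5p duplex (adjusted p = 0.226 and 0.388). The exchange factor TBL1X gave -0.35 for 5p duplex against control (adjusted p = 0.481). SMARCA4, the ATPase of the BAF remodelling complex, gave 0.12 for 3p.1 duplex against control and -0.24 for 5p duplex against 3p.1 duplex (adjusted p = 0.853 and 0.424). NCOA2 gave -0.18 for 3p.1 duplex against control (adjusted p = 0.877).

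Wnt target genes (9 of 17 tested) and inhibitors (4 of 20 tested) showed a mixed baseline. DKK1, a secreted LRP antagonist and target gene, was abundant, at 1288 and 1448 TPM with the 5p duplex, 1369 and 1596 TPM with the 3p.1 duplex, and 1574 and 1846 TPM in control. The target genes CD44, CCND1 and MYC stood at 708.2 to 928.8, 337.3 to 490.9 and 29.27 to 40.08 TPM. By contrast AXIN2, often used as a pathway readout, stayed at 0.68 to 1.01 TPM, and RNF43 and NKD1 stayed below 0.5 TPM in all libraries. DKK1 gave -0.32 and -0.21 against control for the 5p duplex and 3p.1 duplex and -0.11 between them (adjusted p = 0.536, 0.848 and 0.879). MYC gave 0.21 for 3p.1 duplex against control and -0.37 for 5p duplex against 3p.1 duplex (adjusted p = 0.726 and 0.248). CCND1, the cyclin D1 gene, gave 0.29 for 3p.1 duplex against control (adjusted p = 0.785). The inhibitors ZNRF3 (5p duplex against control), KREMEN1 (3p.1 duplex against control) and DKK3 (5p duplex against 3p.1 duplex) gave -0.15, -0.12 and 0.17 (adjusted p = 0.804, 0.947 and 0.856).

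Beta-catenin also holds cadherins to the actin skeleton, so 9 junction genes were read, of which 6 were tested. CTNNA1, the alpha-catenin gene, gave 0.17 and 0.15 against control for the 5p duplex and 3p.1 duplex (adjusted p = 0.671 and 0.841). CDH2, the N-cadherin gene and the most abundant cadherin of the 5 read, at 503.8 to 652.9 TPM, gave 0.18 for 3p.1 duplex against control (adjusted p = 0.848). CDH4 gave 0.36 against control and 0.44 against the 3p.1 duplex for the 5p duplex, and CDH11 -0.19 for 5p duplex against 3p.1 duplex (adjusted p = 0.772, 0.677 and 0.715). CDH1, the epithelial cadherin gene, stayed at 0.09 to 0.17 TPM. The 5 epithelial markers summed to 25.8 and 32.12 TPM with the 5p duplex, 14.31 and 14.28 TPM with the 3p.1 duplex, and 16.29 and 18.04 TPM in control. CLDN4 made up most of that sum and passed the threshold for 5p duplex against 3p.1 duplex, while EPCAM and the keratin genes stayed below 3.1 TPM. The part of this list in the results above was not tested.

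**Figure D5:**
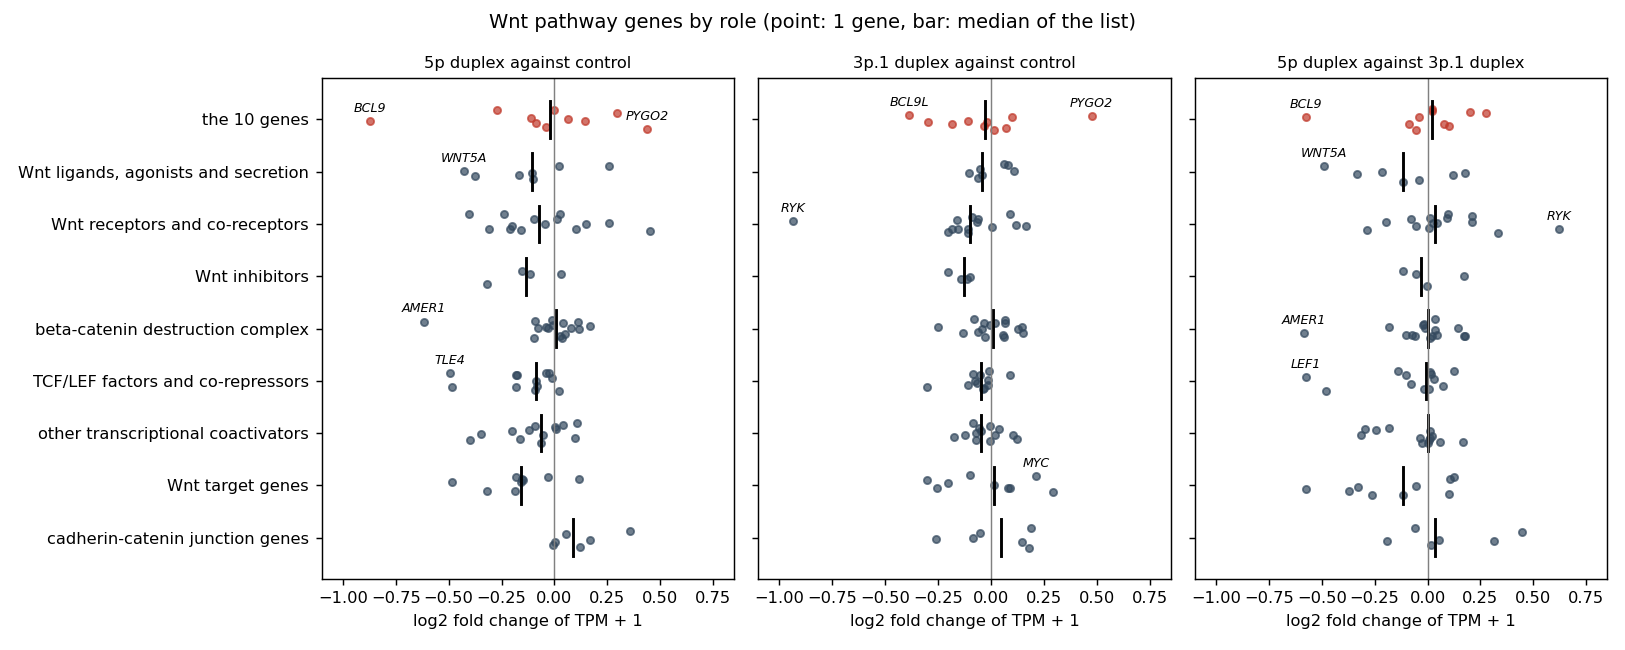
Log2 fold change of TPM + 1 for the 10 genes (red) and 8 lists of other Wnt pathway genes (blue) in the 3 comparisons; each point is 1 tested gene and each bar the median of its list. BCL9 lies at the low end for 5p duplex against control and RYK for 3p.1 duplex against control. None of the points passed the adjusted threshold in the limma model without a replicate term.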

How the data were processed

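Stranded libraries of oligo-dT selected RNA were sequenced as 100 bp pairs, per the labels' protocols. The authors deposited TPM values by gene symbol, 1 file per library, made with RSEM on GRCh38, per the submitters' processing notes. For the aligner, annotation and versions, "not given in the sources used here" applies. Values start at 0.01 TPM and have the same sum in each library, so depth is unknown and no counting interval is given. Symbols not listed were taken as 0, and the 21 to 23 repeated symbols were summed.

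Genes averaging 1 TPM or more over the 6 libraries were fitted as log2(TPM + 1), which understates changes of low genes, with limma 3.58.1 in R 4.3.3 (group means, variance trend, two-sided, Benjamini-Hochberg). The model was tested on simulated data with independent noise of equal size for all genes. That simulation held no shared deviation of same-numbered libraries, unlike these data. The smallest p an exact permutation test of 2 against 2 libraries can give is 0.333, and no such test was run. Intervals of 95% are from limma and unadjusted. Seed matches use the longest 3′UTR of protein-coding transcripts in GENCODE 29. Named genes are the 10 genes and, per other list and comparison, genes passing the threshold or else the 2 with the lowest p. Some target genes and inhibitors, among them AXIN2, RNF43 and NKD1, were named outside this rule for their levels. Cell type markers were named by their role. TLE5 was matched as AES. The genes and lists were chosen with earlier results of these data known. Alternatives were another pseudocount (0.1), other filters (none, 5 TPM), only the 2 groups compared, no variance trend, 2 scalings, a replicate term and leaving out each library.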

Additional observations from a re-analysis of the deposited data

How the results depend on the processing

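The count of 0 among the 10 genes held in all alternatives but 1. Same-numbered libraries deviated together (correlations of 0.265, 0.375 and 0.383 across genes), but the labels tie the numbers to no batch. A fit with the replicate number as a block called 2 of the 10 genes for 5p duplex against control, BCL9 (adjusted p = 0.0258) and PYGO2 (0.0457), with 3 other Wnt genes there (AMER1, DKK1 and TLE4), 1 for 3p.1 duplex against control (RYK) and 2 for 5p duplex against 3p.1 duplex (RYK and TLE4). Over all genes the block called 367, 30 and 278. Counts over all genes were 9, 0 and 5 with no filter on low values, 11, 18 and 19 with only the 2 groups compared, and 33 and 5 without a variance trend for 5p duplex against control and against the 3p.1 duplex, beside 62, 2 and 58 as reported. Leaving out 1 library gave 7 to 128, 5 to 94 and 7 to 26 over all genes, 0 of the 10 genes each time, and 0 to 1 other Wnt genes for 3p.1 duplex against control.

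None of the differences examined here had passed the threshold in the fit reported above. Those whose sign turned were under 0.2 in size, except that of TCF7 (-0.30). With quantile normalization and with an equal median they were 0.0623 and 0.0564 (EP300) and 0.0164 and 0.0182 (DVL1) for 5p duplex against control, and 0.00953 and 0.0230 (CREBBP) and 0.0450 and 0.0365 (EP300) for 3p.1 duplex against control. With quantile normalization WNT3 gave 0.00171 and KREMEN1 0.0414 for 3p.1 duplex against control. Leaving out 1 library gave, for 5p duplex against control, CREBBP -0.0201 to 0.151, EP300 -0.105 to 0.103, DVL1 -0.142 to 0.0640 and BCL9L -0.244 to 0.0245. For 3p.1 duplex against control it gave CREBBP -0.119 to 0.0523, EP300 -0.124 to 0.0844, DVL1 -0.0882 to 0.118, CHD8 -0.178 to 0.00739 and TCF7 -0.786 to 0.177. For 5p duplex against 3p.1 duplex it gave EP300 -0.0462 to 0.0842, DVL2 -0.238 to 0.0673 and DVL3 -0.0189 to 0.0577. The causes were not tested. With all annotated 3′UTRs in place of the longest, DVL1 and CTNNB1 gained 3p matches in other transcripts and the 5p matches stayed those of BCL9 and PYGO2. A lone library left in a group is assumed to vary like the others.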

Other observations

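RYK, the Wnt co-receptor gene with the largest difference among the other Wnt genes for 3p.1 duplex against control, held 1 7mer-m8 to the miR-324-5p seed and 1 8mer to GGGGCAG in a 3′UTR of 1020 bases. Over the 655 genes whose strongest match to GGGGCAG was an 8mer, the median log2 fold change for 3p.1 duplex against control was -0.08 and 70.5% lay below 0. Over the 6719 genes without a match it was -0.02 and 54.6% lay below 0. For the 8mers of the other 3p starts the medians were -0.04 (GGCAGTG, 533 genes) and -0.04 (GCAGTGG, 529 genes). The 5p duplex against control gave 8mer medians of -0.05 (GGGGCAG, 62.3% below 0), -0.07 (GGCAGTG, 67.5%) and -0.04 (GCAGTGG, 59.4%). Between the duplexes these were 0.03, -0.03 and 0.01. The classes are not matched on 3′UTR length, and the cause of these shifts was not tested. AMER1 held 1 7mer-m8 to the miR-324-5p seed in a 3′UTR of 4762 bases, and TLE4, WNT5A and CARM1 held none. These medians describe genes and carry no test over samples.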
